A study of Homo sapiens with 3 samples.

Results

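The RAB GTPases, the largest branch of the small GTPases, were followed through 3 Affymetrix arrays of HepG2, a long-used line grown from a human liver tumour. The members were all genes whose symbol is RAB followed by digits and at most 1 letter, read from probe sets that list a single gene symbol, with RAB-like genes and RAB effectors left out. There were 60 such genes among 18417 measured genes, and 45 of the 60 had a mean over the 3 arrays at or above a log2 value of 6.66, the 40th percentile of all genes, used here as the level filter (11050 genes passed). Of the 60, 59 are protein-coding genes in RefSeq and 1, RAB1C, is a pseudogene. Each group was 1 array: an untreated control, a GO exposure and an rGO exposure, both lasting 24 h. GO is graphene oxide, a carbon sheet studded with oxygen-bearing groups, and rGO is its reduced derivative, from which many of those groups have been removed. Each material was given at its own EC20, a dose taken from viability assays with a 20% effect. The labels give no concentration, so the GO and rGO doses may differ.

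A RAB protein is a molecular switch that marks a membrane. It is loaded with GTP by an exchange factor, then recruits effectors that move, tether or fuse vesicles, and is turned off by a GTPase-activating protein. Prenyl groups added by RAB geranylgeranyl transferase hold it on the membrane, and GDP dissociation inhibitors carry it back through the cytosol. In hepatocytes these switches run the secretion of plasma proteins and lipoproteins, transport to the bile canaliculus, and uptake and breakdown of particles and ligands in endosomes and lysosomes.

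The 3 arrays had near-equal distributions, with medians of 6.63 to 6.66 over 33297 probe sets. The 10 measured hepatocyte and HepG2 markers, among them ALB, AFP and GPC3, stood between 10.8 and 13.6 on every array. Of 5 leukocyte markers 3 lay under the level filter, namely PTPRC, which defines leukocytes, between 3.56 and 3.76, CD3E between 4.70 and 4.77 and CD14 between 5.97 and 6.33. The other two were high on every array: LYZ read 13.23, 13.43 and 13.38, and CD68 read 9.61, 9.98 and 9.51, in the order control, GO and rGO. The part of other cell types in the RAB values was not tested. Fibroblast, stellate and endothelial markers stood between 4.98 and 7.43, and 2 of the 6 passed the level filter. These were COL1A1, at 7.43, 7.36 and 7.26, and PDGFRB, at 6.97, 7.30 and 6.57, in the same order. Every value below is a difference of log2 values between 2 single arrays, with no replicate, no error and no test, and dishes of cells cannot be told apart from exposures. The number of arrays limits the precision. For scale, differences from 2 probe sets of the same gene disagreed with a robust SD (the scaled median absolute deviation, per probe set) of 0.0955 for GO minus control and 0.0654 for rGO minus control, over 280 pairs, with 32 further pairs of identical values left out.

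The first comparison asked how RAB genes differed between GO-exposed and untreated cells. RAB3B, a GTPase of regulated exocytosis, was 1.78-fold higher with GO and RAB30, a GTPase of the Golgi, 1.496-fold higher. At the other end RAB31, which acts between the trans-Golgi network and endosomes, was 1.496-fold lower, and RAB24, linked to autophagy, 1.42-fold lower. RAB23 and RAB28, both linked to primary cilia, were 1.42-fold and 1.40-fold lower. RAB8A and RAB8B, which also carry vesicles to cilia, went the other way, at 1.07-fold and 1.16-fold higher. The family as a whole lay around 0, with a median of 0.01 against 0.01 over all genes past the filter. That median is the value of RAB33B, the middle gene, and its sign turned after loess scaling (-0.0016). The signs of RAB14, RAB20 and RAB40B, which lay close to 0, turned after quantile normalization and median centring.

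Of the 45 RAB genes past the filter, 23 were above 0 (percent of all genes above 0, 51.1%) and 22 below (48.9%). At a fold of 1.5, a log2 difference of 0.58, 1 RAB gene was higher (background 1.91%) and 0 were lower (background 4.23%). RAB30 at 0.581 and RAB31 at -0.581 lay just inside that limit of 0.585. At a fold of 1.2, 5 RAB genes were higher (background 14.0%) and 7 lower (background 17.0%). None of the 45 reached 2-fold, against 0.253% of all genes higher and 0.914% lower. These shares are near the background, so the counts single out no excess among RAB genes. The robust SD of their differences was 0.289, beside 0.244 over all genes.

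**Figure D1:**
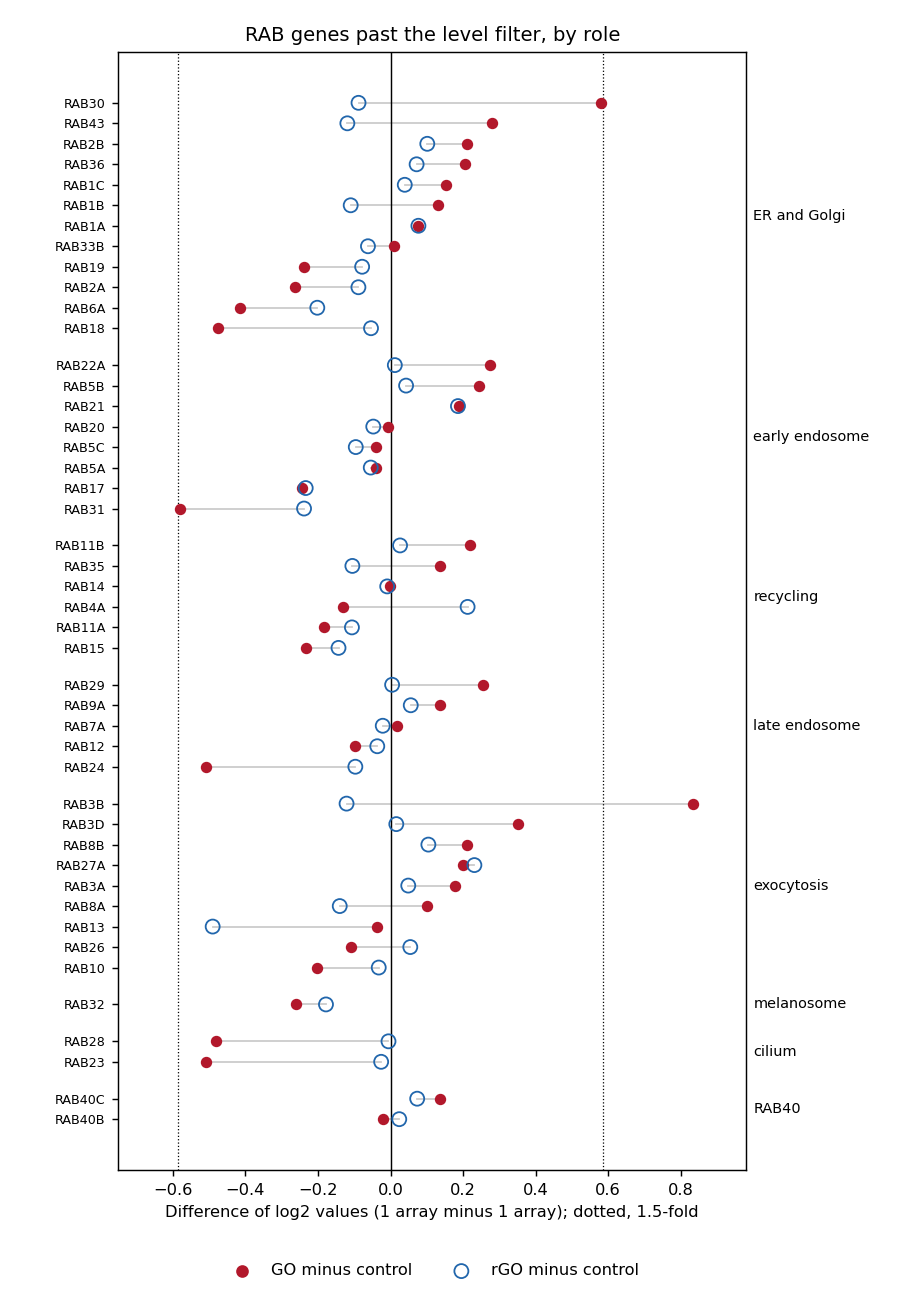
Differences of log2 values from the control array for the 45 RAB genes past the level filter, in rows grouped by role, with GO as filled and rGO as open circles and dotted lines at 1.5-fold. RAB3B alone lies past a dotted line, with RAB30 and RAB31 just short of it, and the rGO circles lie closer to 0 for most genes.

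Exocytosis and polarised secretion. The RABs of this group carry vesicles to the plasma membrane, and 6 of the 9 past the filter were above 0 with GO, with a median of 0.18 (all genes, 0.01). Over all genes 51.1% were above 0, and the counts in this and the later role groups are to be read against that share. Each group is small, so no count marks an excess. RAB3B (Entrez gene 5865) read 7.73 in the control, 8.56 with GO and 7.60 with rGO, so the GO array stood apart from the other two. Its difference of 0.83 ranked 58 from the top among 11050 genes. RAB3D, found on secretory granules of exocrine cells, read 7.22, 7.57 and 7.24 in the same order, again with the GO array alone high. RAB3A, the synaptic vesicle member, read 7.61, 7.79 and 7.66, a GO difference of 0.18. RAB3C lay under the filter at 4.39, 4.28 and 4.31, so the 3 expressed members of the RAB3 subfamily were all above 0 with GO, by unequal amounts.

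RAB8A and RAB8B carry vesicles from the Golgi to the surface and to cilia. RAB8B read 8.10 in the control, 8.31 with GO and 8.21 with rGO, while RAB8A read 8.86, 8.96 and 8.72. RAB10, which acts in basolateral traffic and in delivery of the glucose transporter GLUT4, read 11.50, 11.29 and 11.46 and was the lowest of the group with GO (-0.20). RAB27A, which docks secretory lysosomes and exosome-bearing endosomes, read 7.43, 7.63 and 7.66, so both exposed arrays lay above the control. RAB26 stood at -0.11 with GO, and RAB37 and RAB27B lay under the filter.

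The bases before the start of RAB3B are shown because it is the RAB gene with the largest difference. The window is the 250 bases upstream of the RefSeq start at chr1:51990701-51990950 on the minus strand of GRCh38.p14, overlaps no other RefSeq gene, and is 56.8% G and C. Capitals mark its 3 GC boxes, spelled GGGCGG on either strand. It holds no E-box, CCAAT box, TATA box or CRE on either strand.
RAB3B: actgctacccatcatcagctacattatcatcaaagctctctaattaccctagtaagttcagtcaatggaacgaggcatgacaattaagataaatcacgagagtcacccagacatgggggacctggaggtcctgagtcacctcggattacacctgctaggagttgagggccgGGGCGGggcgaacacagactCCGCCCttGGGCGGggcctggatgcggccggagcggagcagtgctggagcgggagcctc

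ER to Golgi and Golgi traffic. Of the 12 genes past the filter 8 were above 0 with GO, with a median of 0.10, and the group spread from -0.47 to 0.58. RAB30 (Entrez gene 27314) read 7.45 in the control, 8.03 with GO and 7.36 with rGO, the GO array alone being high. RAB43, a GTPase of the Golgi, read 7.48, 7.76 and 7.36. A stronger probe set that lists RAB43 with the ISY1-RAB43 readthrough read 8.96, 8.93 and 8.73, without a rise on the GO array. RAB2B, which serves Golgi structure, read 9.55, 9.76 and 9.65. RAB36 stood at 0.21 from a control value of 6.58 that lay under the filter level. RAB1A and RAB1B, which start transport from the endoplasmic reticulum to the Golgi, stood at 0.08 and 0.13. The RAB1C pseudogene stood at 0.15. As it is a near copy of an expressed gene, its probe set may read transcripts of a RAB1 gene, which was not tested.

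On the lower side RAB18, a GTPase of the endoplasmic reticulum and of lipid droplets, read 9.72 in the control, 9.25 with GO and 9.67 with rGO. RAB6A, the main RAB of retrograde Golgi transport, read 10.52, 10.11 and 10.32, so both exposures were below the control and GO further so. RAB2A read 9.23, 8.96 and 9.14, against the direction of RAB2B. RAB19, another Golgi member, read 6.86, 6.62 and 6.78, its GO value being under the filter level. RAB33B, which binds an autophagy factor at the Golgi, stood at 0.01. Under the filter, RAB6B, the neuronal relative of RAB6A, read 6.25, 6.14 and 6.18, and RAB41 read 4.58, 4.33 and 4.50. RAB33A was also under it.

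Early endosome and endocytosis. Of 8 genes, all past the filter, 3 were above 0 and 5 below with GO, with a median of -0.02. RAB31 (Entrez gene 11031) read 9.53 in the control, 8.95 with GO and 9.29 with rGO, so both exposed arrays were below the control. RAB22A, its closest relative, which acts in early endosomes and recycling, read 9.27, 9.55 and 9.29, with GO alone high. RAB21, which moves integrins through early endosomes, read 9.41, 9.60 and 9.60, the exposed arrays being level with each other. RAB17, a RAB of polarised epithelia, read 9.35, 9.11 and 9.12, below the control to a similar extent in both.

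RAB5 proteins govern fusion of early endosomes. RAB5B read 9.49, 9.73 and 9.53, whereas RAB5A read 9.78, 9.74 and 9.72 and RAB5C read 12.54, 12.50 and 12.44. RAB5B therefore stood at 0.24 with GO and its relatives at -0.04 each. RAB20 stood at -0.01.

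Late endosome, lysosome and autophagy. Of the 5 genes past the filter, 3 were above 0 with GO, with a median of 0.02. RAB24 read 9.02 in the control, 8.51 with GO and 8.92 with rGO. RAB29, which acts at the trans-Golgi network and on stressed lysosomes, read 8.26, 8.51 and 8.26. RAB7A, the master RAB of late endosomes, read 12.21, 12.23 and 12.19, and its second, weaker probe set read 6.42, 6.70 and 6.81. That weak probe set lay under the filter level on the control array, and its differences of 0.28 and 0.39 have no counterpart in the strong one. RAB9A, which returns receptors from late endosomes to the Golgi, stood at 0.14, and RAB12 at -0.10. RAB7B, RAB9B, RAB39A and RAB39B lay under the filter.

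Endosomal recycling. Of the 6 genes past the filter 2 were above 0 with GO, with a median of -0.07. RAB11B, of the recycling endosome, read 9.67 in the control, 9.89 with GO and 9.69 with rGO, while RAB11A read 10.08, 9.89 and 9.97. These near relatives stood on opposite sides of the control. RAB4A, of fast recycling, read 9.16, 9.03 and 9.37, and RAB15 stood at -0.23. RAB35 stood at 0.14 and RAB14 at 0.00, its values being 10.67, 10.67 and 10.66. RAB25 read 5.73, 5.62 and 5.41, under the filter.

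Cilium, melanosome-related and other members. RAB23, a negative regulator of Hedgehog signalling, read 8.42 in the control, 7.91 with GO and 8.40 with rGO. RAB28, which works in photoreceptor and ciliary membranes, read 8.12, 7.64 and 8.11. In both of these cilium-linked genes the GO array alone was low. RAB8A and RAB8B, placed with exocytosis but also serving cilia, stood at 0.10 and 0.21 with GO. RAB32, of lysosome-related organelles and mitochondria, read 8.64, 8.38 and 8.46, and RAB38 read 5.72, 5.40 and 5.47 under the filter. The RAB40 proteins carry a SOCS box that joins ubiquitin ligases; RAB40B stood at -0.02 and RAB40C at 0.14, and RAB40A lay under the filter.

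**Figure D2:**
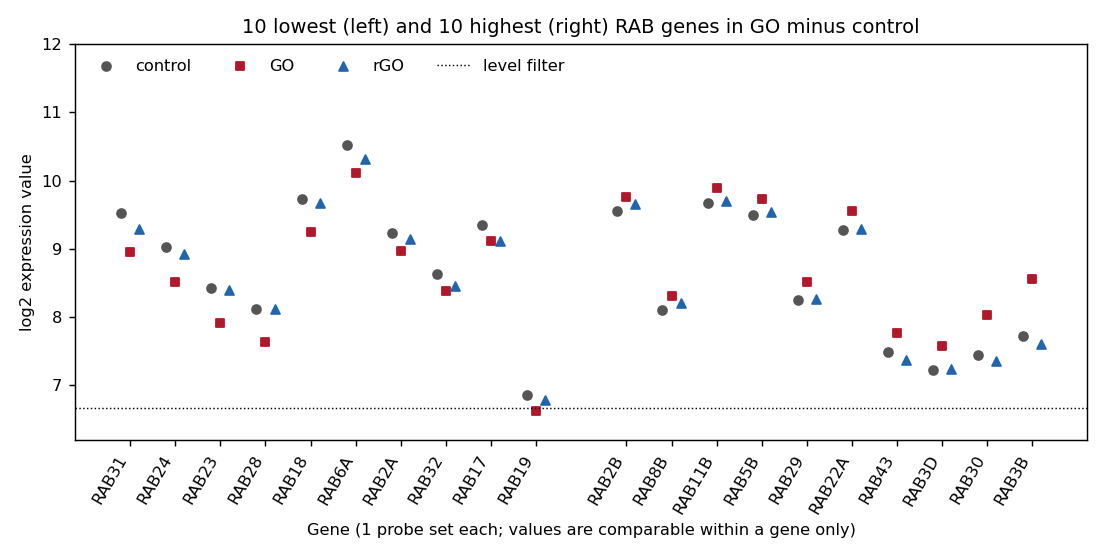
Log2 expression values on the control (circles), GO (squares) and rGO (triangles) arrays for the 10 lowest and the 10 highest RAB genes in GO minus control, 1 point per array, with the level filter dotted. The squares lie under the control circles on the left and above them on the right, by up to 0.83 for RAB3B; levels of different genes are not comparable.

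Windows before the starts of the lower genes are shown beside that of RAB3B because RAB31, RAB24, RAB28 and RAB18 were among the 5 lowest RAB genes with GO, and that of RAB22A is shown as the higher relative of RAB31. RAB23, the remaining one of the 5, and RAB30 have several RefSeq starts and no window of theirs is printed. RAB31 lies at chr18:9708051-9708300 on the plus strand, RAB18 at chr10:27504054-27504303 on the plus strand and RAB22A at chr20:58309465-58309714 on the plus strand, each window being 250 bases long and outside other RefSeq genes. For RAB24, chr5:177303720-177303798 on the minus strand, and RAB28, chr4:13484341-13484448 on the minus strand, the window ends after 79 and 108 bases, where the neighbouring genes PRELID1 and LOC105374495 begin. All are GRCh38.p14, from RefSeq, written 5′ to 3′ towards the start, with GC boxes and E-boxes (CACGTG) in capitals.
RAB31: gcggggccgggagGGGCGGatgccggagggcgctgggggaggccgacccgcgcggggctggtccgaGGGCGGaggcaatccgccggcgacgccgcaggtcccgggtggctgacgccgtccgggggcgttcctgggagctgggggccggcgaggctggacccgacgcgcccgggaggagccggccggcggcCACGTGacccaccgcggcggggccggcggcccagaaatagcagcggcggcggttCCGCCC
RAB24: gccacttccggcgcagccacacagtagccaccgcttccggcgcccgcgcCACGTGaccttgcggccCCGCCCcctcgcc
RAB28: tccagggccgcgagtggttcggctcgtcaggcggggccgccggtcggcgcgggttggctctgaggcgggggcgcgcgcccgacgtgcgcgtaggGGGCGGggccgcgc
RAB18: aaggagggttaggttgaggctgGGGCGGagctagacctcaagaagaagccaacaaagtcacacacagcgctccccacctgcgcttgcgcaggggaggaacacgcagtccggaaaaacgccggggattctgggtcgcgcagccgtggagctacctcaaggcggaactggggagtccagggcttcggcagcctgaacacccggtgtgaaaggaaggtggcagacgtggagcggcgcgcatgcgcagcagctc
RAB22A: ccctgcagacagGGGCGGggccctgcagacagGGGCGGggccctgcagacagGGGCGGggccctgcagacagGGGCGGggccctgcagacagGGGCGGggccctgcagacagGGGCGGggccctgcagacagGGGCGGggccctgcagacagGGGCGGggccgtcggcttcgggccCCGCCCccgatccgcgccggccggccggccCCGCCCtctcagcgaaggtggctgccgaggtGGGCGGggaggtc

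RAB31 and RAB24 each hold 1 E-box and RAB22A holds 11 GC boxes, most of them in a tandem repeat. RAB31, RAB24, RAB28 and RAB18 hold 3, 1, 1 and 1 GC boxes in the bases printed. Promoter windows were found for 46 of the 60 genes, with 65 starts in all. An E-box, CACGTG, was spelled in 7.69% of these 65 windows and in 6.34% of all 35116 RefSeq windows of 250 bases. The RAB genes with an E-box were RAB4A, RAB5A, RAB21, RAB24 and RAB31, whose GO differences ran from -0.58 to 0.19. A GC box was spelled in 73.8% of the RAB windows and 42.6% of all windows. A CCAAT box, named by its letters, was spelled in 29.2% and 32.0%. A TATA box, searched as TATAAA, was spelled in 6.15% and 10.7%. A cAMP response element (CRE), searched as TGACGTCA, was spelled in 1.54% and 1.65%. ACGTG, the core of hypoxia response elements, overlaps the E-box and was spelled in 27.7% of RAB windows and 18.5% of all. The related GCGTG was spelled in 33.8% and 32.2%. The 65 windows include several starts of the same gene, and a match is only a run of letters.

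Related RAB genes were set side by side to see whether members of a subfamily stood on the same side of the control. RAB22A and RAB31 were the pair furthest apart with GO, by 0.86, and RAB21 and RAB31 followed at 0.77. Within RAB3 the gap between RAB3A and RAB3B was 0.66, with all 3 expressed members above 0. RAB29 and RAB32 lay 0.51 apart, RAB2A and RAB2B 0.47, and RAB11A and RAB11B 0.40, each pair on opposite sides of the control. RAB1A and RAB1B differed by 0.05 and RAB5A and RAB5C by 0.0023. Over 21 pairs within 10 sets, some sharing a gene, the median gap was 0.28 and 12 pairs had opposite signs. The 45 RAB genes split into 23 above 0 and 22 below with GO, and 18 and 27 with rGO. Splits this even make opposite signs common among RAB pairs of any kind. Their share over all 990 pairs was not counted, so the opposite-sign counts of relatives mark no excess. Over all 990 pairs of RAB genes the median gap was 0.26, so with GO relatives were about as far apart as any 2 RAB genes. With rGO the median gap was 0.17 over the 21 pairs, 13 of them with opposite signs, against 0.11 over all pairs. The pairs of RAB13 with RAB8A, RAB8B and RAB10 had rGO gaps of 0.35, 0.59 and 0.46. These gaps are above that median, and the median without them was not computed. The RAB13 difference rests on 1 of its 2 probe sets (-0.49, the other -0.03).

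**Figure D3:**
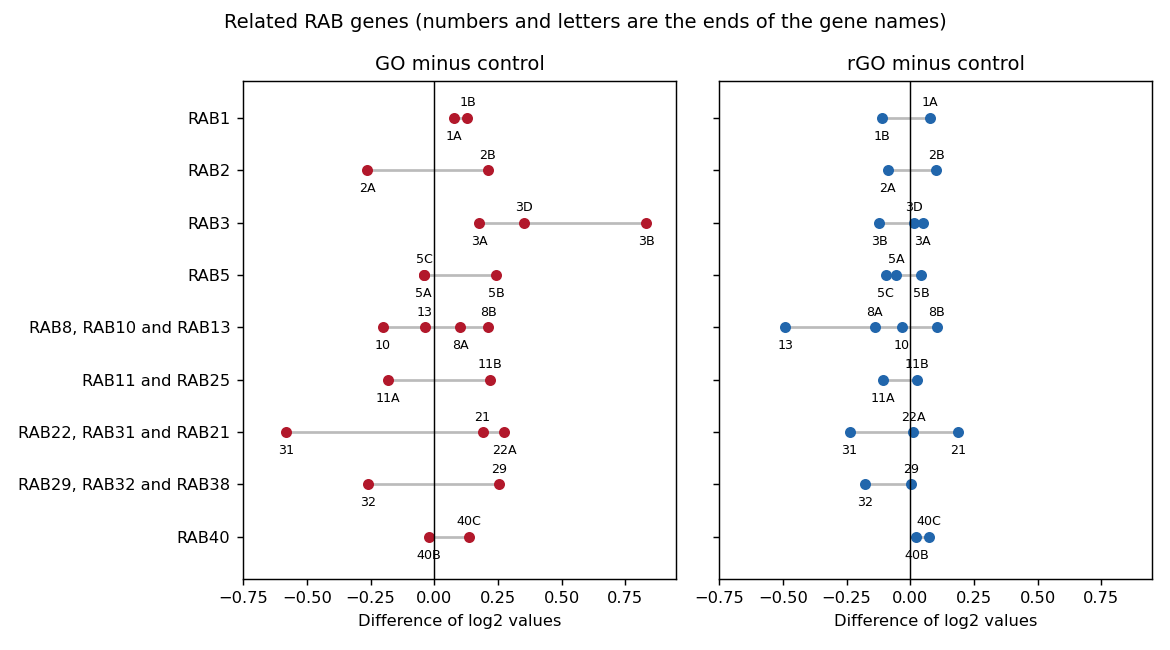
Differences of log2 values from control for related RAB genes past the filter, 1 row per subfamily, GO in the left panel and rGO in the right, points labelled by the end of the gene name. RAB22A and RAB31 lie 0.86 apart with GO and 0.25 apart with rGO, and the RAB3 genes are all right of 0 with GO.

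The second comparison asked how RAB genes differed between rGO-exposed and untreated cells. RAB13, a GTPase of tight junction traffic, was 1.40-fold lower, and the other genes past the filter lay within 0.24 of the control. RAB27A (0.23), RAB4A (0.21), RAB21 (0.19) and RAB8B (0.10) were the highest, and RAB31 (-0.24), RAB17 (-0.23) and RAB6A (-0.20) the lowest after RAB13. The median was -0.03, against -0.01 over all genes. Of 45 genes, 18 were above 0 (background 46.8%) and 27 below (background 53.1%). At 1.5-fold 0 were higher (background 0.0271%) and 0 lower (background 0.127%), and at 1.2-fold 0 were higher (background 1.53%) and 1 lower (background 3.06%). None reached 2-fold, against 0.00% of all genes higher and 0.0181% lower. The signs of RAB14, RAB22A, RAB28, RAB29 and RAB3D, all close to 0 with rGO, turned under at least 1 scaling. The robust SD was 0.110, beside 0.116 over all genes.

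RAB13 (Entrez gene 5872) rested on 1 of its 2 probe sets. The stronger read 8.81 in the control, 8.77 with GO and 8.32 with rGO, with the rGO array alone low. The other read 8.32, 8.34 and 8.29, a difference of -0.03 with rGO. The difference of the stronger probe set ranked 30 from the bottom among 11050 genes, and that of the other was within the disagreement between probe sets. Among the relatives of RAB13, RAB8A stood at -0.14, RAB10 at -0.03 and RAB8B at 0.10 with rGO.

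Both comparisons use the same control array, so values that are low or high in that array move both. RAB31, RAB6A and RAB17 were below 0 in both, at -0.58 and -0.24, -0.41 and -0.20, and -0.24 and -0.23. RAB21 and RAB27A were above 0 in both, at 0.19 and 0.19, and 0.20 and 0.23. RAB3B stood at 0.83 with GO and -0.12 with rGO, RAB30 at 0.58 and -0.09, RAB43 at 0.28 and -0.12, and RAB4A at -0.13 and 0.21.

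The third comparison set the exposed arrays against each other. RAB3B was 1.94-fold and RAB30 1.59-fold higher with GO than with rGO, the 2 RAB genes past 1.5-fold (background 1.82%), and 0 were as much lower (background 3.20%). At 1.2-fold 5 were higher (background 12.8%) and 6 lower (background 14.8%), and at 2-fold 0 were higher (background 0.262%) and 0 lower (background 0.534%). RAB13 at 0.45 and RAB43 at 0.40 came next. The other RAB13 probe set stood at 0.05, and the probe set listing RAB43 with the ISY1-RAB43 readthrough at 0.20. At the other end RAB23 and RAB28 both stood at -0.48, RAB18 at -0.42, RAB24 at -0.41, and RAB4A and RAB31 both at -0.34. The median was 0.04, against 0.01 over all genes, with 27 of 45 above 0 (background 52.9%) and 18 below (background 47.0%). The signs of RAB1A, RAB5A, RAB14, RAB17, RAB21 and RAB27A, all close to 0 here, turned under at least 1 scaling.

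The 15 RAB genes under the level filter are given as weak signals, where background can distort a difference. With GO, 7 were above 0 and 8 below, from -0.32 (RAB38 and RAB40A) to 0.64 (RAB42). With rGO they ran from -0.39 (RAB40A) to 0.38 (RAB42). RAB42, a little-studied member, read 5.97 in the control, 6.61 with GO and 6.35 with rGO, all under the filter level. RAB40A read 6.84, 6.52 and 6.45, its control value alone being above the filter level. RAB44, a large RAB with EF-hands, had 2 probe sets under the filter. The stronger read 5.92 in the control, 5.66 with GO and 5.83 with rGO, and the other read 5.17, 5.37 and 5.23. They differed in direction, at -0.26 and 0.20 with GO and at -0.08 and 0.06 with rGO.

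The regulators of RAB proteins were described from lists of their names. RABGGTB, the catalytic subunit of RAB geranylgeranyl transferase, read 10.22 in the control, 9.54 with GO and 10.23 with rGO, and was 1.60-fold lower with GO. Its partner RABGGTA stood at 0.18, the guanine nucleotide-releasing chaperone RABIF at 0.15, GDI2, a GDP dissociation inhibitor, at -0.14 and YIPF6, a Golgi membrane protein, at -0.15. Of these 8 genes 5 were above 0, with a median of 0.07, and RABGGTB was the 1 past 1.5-fold.

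Over all genes 51.1% were above 0, 1.91% were higher by 1.5-fold or more and 4.23% were lower by as much, and the shares in the regulator and effector lists are to be read against these. Of 40 exchange factors past the filter 23 were above 0 with GO, with a median of 0.05, 0 at least 1.5-fold higher and 1 lower. The lowest were TRAPPC13 (-0.61) and TRAPPC6B (-0.44), subunits of the TRAPP complexes that act on RAB1 and RAB11. The highest were DENND5A (0.35) and the TRAPP subunit TRAPPC12 (0.34). Of 35 GTPase-activating proteins 20 were above 0, with a median of 0.07, 0 at least 1.5-fold higher and 1 lower. TBC1D15, which acts on RAB7, stood at -0.62 and TBC1D31 at -0.32, while TBC1D9 stood at 0.51 and TBC1D2B at 0.41.

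Of 51 effectors 30 were above 0, with a median of 0.03, 0 at least 1.5-fold higher and 2 lower. The 2 were RABEP1, the RAB5 effector rabaptin-5, which read 9.06, 8.31 and 8.81 (-0.75), and RILPL2, which joins phosphorylated RABs to ciliary traffic and read 8.62, 7.90 and 8.46 (-0.72). PLIN3, a lipid droplet coat protein that also binds RAB9, stood at 0.48 and the Golgi tether GOLGA2 at 0.45. With rGO the medians of these 4 lists lay between -0.03 and 0.01, with 0 members at least 1.5-fold from control.

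For comparison, the median with GO was 0.01 over 10 ARF and SAR genes and -0.07 over 18 RAS family genes. Of these, 6 and 8 were above 0 (all genes, 51.1%). Their robust SDs were 0.0971 and 0.342. With GO, 1 RAS family gene was at least 1.5-fold higher (all genes, 1.91%) and 0 were lower (4.23%). No ARF or SAR gene reached 1.5-fold either way. Only 13 of 27 listed ARF and SAR genes were measured, against 33 of 35 RAS family genes, so the first list is partial. With rGO the medians were -0.03 and -0.06. Without replicates none of these medians can be told from that of the RAB genes.

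**Figure D4:**
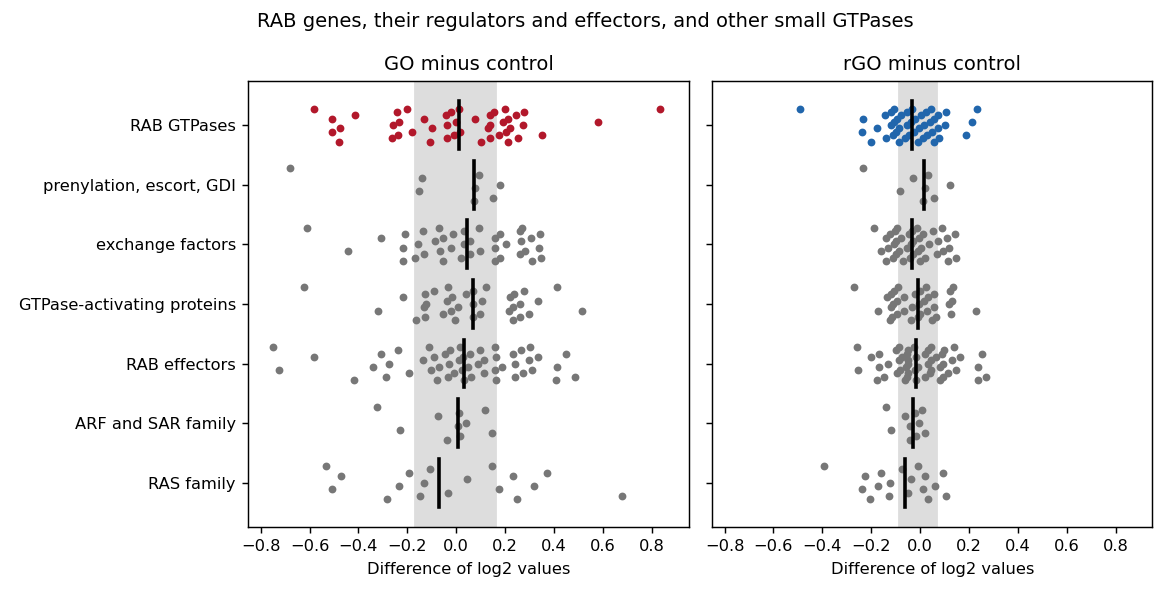
Differences of log2 values from control for RAB genes, their regulators and effectors, and the ARF and RAS families, GO in the left panel and rGO in the right, 1 point per gene past the filter, black bars at list medians and grey bands at the quartiles of all genes. The medians lie between -0.07 and 0.07 with GO, inside the grey band from -0.17 to 0.16.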

How the data were processed

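Total RNA was converted to biotin-labelled cDNA for the arrays, per the labels' protocols. The authors deposited log2 expression values per probe set; RMA and MAS5 are named, with neither role nor version, per the submitters' processing notes. The distributions are near-equal and no gene is centred; which tool made them, and on which build, is not given in the sources used here. Probe sets were named through GEO's platform annotation, which can be old; 19460 of 33297 list 1 symbol. A gene was represented by its probe set with the highest mean. Differences were taken between single arrays, with calls at 1.5-fold and no test. The members, lists and rules were chosen with earlier results of these data known; values on all arrays are given for the 10 highest and 10 lowest members with GO, the 4 highest and lowest with rGO, members with several probe sets, and larger subfamilies, and 2 genes at each end of a regulator list. Other members and genes named were chosen after their values were seen. Promoter windows are RefSeq's (GRCh38.p14), searched for 7 motifs on both strands. The calculation was tested on simulated data. Alternatives were quantile normalization, median centring, loess (span 0.3), other filters, folds of 1.2 and 2, probe set means and list means. Python 3.11.15, numpy 2.4.6, pandas 2.3.3, statsmodels 0.14.6 and matplotlib 3.10.9 were used. A comparison with 1 further list of genes is not reported here.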

Additional observations from a re-analysis of the deposited data

How the results depend on the processing

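Medians of the RAB genes moved by less than the disagreement between probe sets under all 24 combinations of comparison and alternative. That limit is the spread of a single probe set, which is wide for a median over many genes, so staying within it shows little. The GO median, near 0, ran from 0.03 after median centring to -0.02 with the 60th percentile filter. The number of RAB genes at least 1.5-fold higher with GO was 2 after quantile normalization, after median centring (in both RAB30 joins RAB3B) and with no level filter (RAB42 joins), 5 at 1.2-fold and 0 at 2-fold. The number lower was 1 after loess (RAB31) and 7 at 1.2-fold. For rGO the number lower was 1 at 1.2-fold. For GO minus rGO the number higher was 1 with the 60th percentile filter, which RAB30 does not pass, 5 at 1.2-fold and 0 at 2-fold, and the number lower was 6 at 1.2-fold. Of 540 values of single genes under alternatives, 23 changed sign, all from a size of at most 0.038, and 4 moved by more than the disagreement between probe sets, each with probe sets averaged: RAB7A to 0.15 (GO) and 0.18 (rGO), and RAB13 to -0.26 (rGO) and 0.25 (GO minus rGO). Among members past the filter only RAB7A and RAB13 have 2 probe sets, so averaging could change no other member. Median centring shifts all genes by the same amount. The count of 4 among 540 is therefore no measure of how stable single-gene values are. No paired analysis was possible because each group is 1 array. Weak signal limits the 15 genes under the filter.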

Other observations

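The platform annotation lists 5 further probe sets with a RAB symbol beside other symbols, so their signal has no single gene. Of these, 2 list RAB6A with RAB6C and RAB6D, and they stood at -0.24 and -0.30 with GO and at -0.11 and -0.15 with rGO, beside -0.41 and -0.20 for the RAB6A probe set used. The probe set listing RAB43 with the ISY1-RAB43 readthrough read 8.96 in the control, above the 7.48 of the RAB43 probe set used. It stood at -0.03 with GO, against 0.28 for the one used, and at -0.23 with rGO, against -0.12. The probe set listing RAB4B with its readthroughs stood at 0.26 with GO and 0.17 with rGO, and that listing RAB34 with NARR at -0.03 and 0.15.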
